A study of Drosophila melanogaster with 36 samples.

Results

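The genomic origin of Piwi-bound small RNAs from the somatic cells of the Drosophila melanogaster ovary was described over 15466 bins of 1 kb, which were 11.1% of the 139714 bins of the dm3 assembly in the deposited table. A bin was included where its mappability index, the part of the bin that short reads can be placed in uniquely, was at least 0.25 and where its signal was at least 5 in either of 2 small RNA libraries. The first, called the Piwi-IP library, held small RNAs that were bound to Piwi and recovered by immunoprecipitation from ovaries in which piwi was knocked down in the germline, and its label names them somatic piRNAs. The second, called the control library, held small RNAs of 18 to 29 nt of total RNA from ovaries with a control knockdown in the germline. Both came from ovaries of adult females aged 4 to 6 days, from flies kept at 25 °C. Small RNA libraries of the same size range from ovaries with germline knockdown of rhino, deadlock or cutoff, and ChIP-seq, GRO-seq and RNA-seq of the same study, were used as further readouts of the same bins. The study as a whole set out to find and characterise the genomic sources of piRNA precursor transcripts. The promoter that drove the knockdowns and the number of flies per library are not given in the sources used here.

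PiRNAs are small RNAs that guide PIWI-clade Argonaute proteins to transposon transcripts. In the fly ovary the germline uses Piwi, Aubergine and Argonaute3, whereas the somatic follicle cells around the germline use Piwi alone. Germline piRNAs come mainly from dual-strand clusters such as 42AB, 38C and 80F, whose transcription needs the HP1-family protein Rhino and its partners Deadlock and Cutoff. Follicle cell piRNAs come from clusters transcribed from a single strand, of which flamenco is the best known, and from the messenger RNAs of some protein-coding genes. Flamenco restrains Gypsy-family retrotransposons in follicle cells.

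Each library was sequenced once, so no difference below has a replicate check and no p-value was computed. Intervals are exact 95% Clopper-Pearson intervals that cover counting error only, since PCR copies of a molecule could not be removed. The Piwi-IP library had 6402815 reads in all bins and 5064245 in the 15466 bins, against 3757435 and 2997878 in the control library. The authors scaled the Piwi-IP library to a total of 44000001 reads and the control library to 4190000, so that 1 read in a fully mappable bin was worth a signal of 0.0227 in the first and 0.239 in the second. A signal of 5 thus rested on about 216 reads in the Piwi-IP library and 20.5 in the control library. What these totals stand for is not stated, and a ratio between the libraries depends on them, whereas a share of reads within a library does not. The levels of the rhino, deadlock and cutoff knockdown libraries against the control depend on such totals as well. An immunoprecipitate from ovaries that keep germline Piwi was not used here, and in whole ovaries fewer cells of a type and less RNA per cell cannot be told apart.

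The control library alone brought in most bins. It reached a signal of 5 in 15343 bins and the Piwi-IP library in 2865 bins, with 2742 bins in common. Only 123 bins entered through the Piwi-IP library. The lowest maximum of an included bin was 5.0007 and the highest of an excluded bin 4.998. There were 1589 bins at 5 to 6 and a further 2185 mappable bins at 4 to 5 that were left out.

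The label was checked against the clusters first. At flamenco (X 21502001 to 21688000) the Piwi-IP library had a mean signal of 1101 and the control library of 944 over the 54 bins kept. At 42AB (2R 2143001 to 2389000), the largest dual-strand germline cluster, the Piwi-IP library had a mean signal of 6.403 over 99 bins, and the control library of 3925. This was a 654-fold lower density of scaled reads in the Piwi-IP library (642.5 to 666.5). At 80F the mean signal was 2.57 against 1083 over 27 bins, and at the first and second part of 38C it was 5.64 against 984 over 15 bins and 1.65 against 663 over 27 bins. All 168 bins of these dual-strand clusters lay at 0.25 times the control or less, and none of the 54 flamenco bins did. Of all 15466 bins, 67.8% lay that low. The dual-strand clusters together gave 0.333% of the Piwi-IP reads and 29.4% of the control reads.

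The reads that the Piwi-IP library did have at the dual-strand clusters followed the control from bin to bin. Spearman's rho between the 2 libraries was 0.964 over the 15 bins of the first part of 38C, 0.927 over the 27 bins of its second part and 0.941 over the 27 bins of 80F. It was 0.653 over the 99 bins of 42AB. Bins of a cluster share their mappability and neighbours, so these values are descriptions only. Their cause was not tested.

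More than 4 in 10 Piwi-IP reads came from 3 places. Flamenco gave 30.9% (30.8 to 30.9) of the Piwi-IP reads in the 15466 bins and 4.07% of the control reads. A run of 5 bins at X 11089001 to 11096000 gave 9.75% and 1.32%, and a run of 36 bins on the unplaced scaffold U (923001 to 1042000) gave 6.33% and 0.632%. Together these 95 bins held 47.0% of the Piwi-IP reads against 6.02% of the control reads. The Piwi-IP library was accordingly the more concentrated one. It reached 50% of its reads in its 60 highest bins and 90% in 2356, where the control library needed 279 and 6460 bins. The 10 highest bins held 24.7% of the Piwi-IP reads, and 6 of them lay in flamenco and 4 in the 5-bin run on X. The highest of all was X 21508001 to 21509000 in flamenco, with 220051 Piwi-IP reads (4.35%) and 17301 control reads.

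By chromosome, the X carried 49.7% of the Piwi-IP reads and 18.0% of the control reads. Without flamenco, 20A and the 5-bin run, the other 1779 X bins held 7.80% and 6.75%. Chromosome arm 2R, which carries 42AB, stood the other way, with 7.79% of the Piwi-IP reads and 30.3% of the control reads. Arm 3R held 8.29% of the Piwi-IP reads and 4.42% of the control reads, and chromosome 4 held 5.46% and 3.97%. Arms 2L and 3L differed less, with 7.37% against 7.94% and 9.06% against 10.2%. The heterochromatic scaffold 3LHet held 0.975% of the Piwi-IP reads and 6.52% of the control reads, and 3RHet 0.979% and 5.73%. All bins that the authors flag as heterochromatic held 16.7% of the Piwi-IP reads and 37.0% of the control reads, and bins that overlap an exon 40.5% and 18.5%. Counting error on each of these shares was under 0.1 percentage points.

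**Figure D1:**
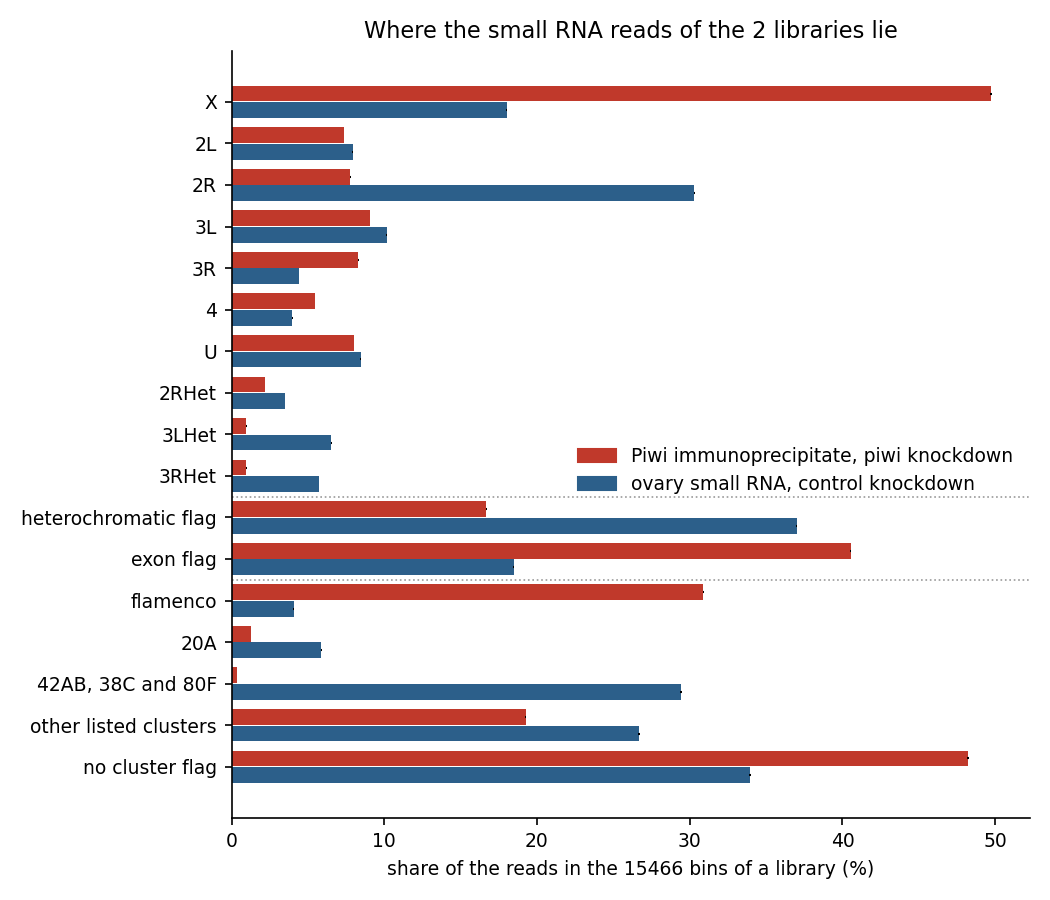
Share of the reads in the 15466 bins (x axis, %) that lay on each chromosome or scaffold, in flagged bins and in clusters (y axis), for the Piwi-IP library (red) and the control library (blue), with exact 95% intervals that are about as thin as the bar ends. The X, exon bins and flamenco take a larger share in the Piwi-IP library, and 2R, heterochromatin and the dual-strand clusters a smaller one.

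Within flamenco, most bins lay within 2-fold of the control in the Piwi-IP library at the deposited scaling. That closeness depends on the scaling, since equal summed signal over the set would raise the Piwi-IP signal 8.01-fold. In 50 of its 54 bins the density of scaled reads in the Piwi-IP library was 1.21 times that of the control (1.21 to 1.22), and 46 of these lay within 2-fold. Both were highest at the start of the cluster, where the first 20 kb held 47.2% of the Piwi-IP reads and 47.2% of the control reads of flamenco, and the next 20 kb 32.0% and 30.0%. No bin was kept between 60 and 100 kb from the start of the cluster, and 131 of the 186 flamenco bins had a mappability index under 0.25. Further along the 2 libraries parted by more than their counting error. At 120 to 140 kb the Piwi-IP library was 2.20 times the control, and in the blocks on either side, 100 to 120 kb and 140 to 160 kb, it was 0.686 and 0.710 times the control. The blocks include all 54 bins. Most of the 4 bins left out of the 50 fall in the 120 to 140 kb block and raise its ratio. Over the 50 bins the log2 ratio of Piwi-IP to control ran from -1.13 to 1.97. The same ratio ran from -0.18 to 0.39 for the rhino knockdown, from -0.34 to 0.34 for the cutoff knockdown and from -0.82 to 1.75 for the deadlock knockdown. Spearman's rho with the control was 0.922 for the Piwi-IP library, 0.994 for rhino, 0.995 for cutoff and 0.934 for deadlock. Over all 186 bins, unmappable ones included, flamenco held 26.9% of all Piwi-IP reads in the table and 3.72% of the control reads.

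The 4 remaining flamenco bins stood apart. They are neighbours, at X 21639001 to 21643000, and were singled out after their values were seen. The Piwi-IP library had 9537 reads there and the control library 8, and the knockdown libraries of rhino, deadlock and cutoff had 5, 3 and 5. The ratio of scaled reads was 114 (57.6 to 263). From left to right, the Piwi-IP signal was 83.5, 119, 105 and 55.1, and the control signal 0.730, 0.740, 0.457 and 2.12. The input of the ChIP libraries was also near its floor of 0.1 in these bins, at 0.1 to 0.109, against a median of 4.30 in the other 50. H3K9me3 ChIP signal was at most 0.224 in the control knockdown and 0.183 in the rhino knockdown. In the piwi knockdown, the genotype of the Piwi-IP library, it was 6.45 to 10.03. Rhino ChIP signal in the piwi knockdown was 1.63 to 3.43, against at most 0.621 in the control. RNA-seq and GRO-seq were at or near their floors. So the signal of the stretch was near its floor in every readout used that did not come from a piwi knockdown, and above it in the 3 that did. The cause was not tested. These bins held 0.610% of the flamenco reads of the Piwi-IP library, and no other bin had 1000 or more Piwi-IP reads with fewer than 10 control reads.

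**Figure D2:**
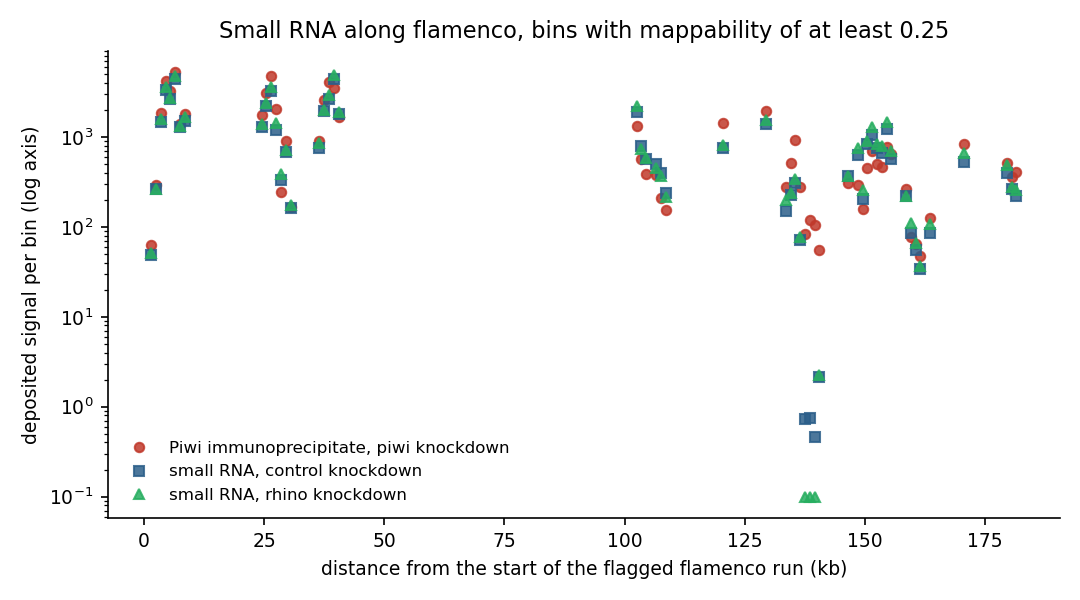
Deposited signal (y axis, log scale) of the 54 flamenco bins with a mappability index of at least 0.25, by distance from the start of the cluster (x axis, kb), for the Piwi-IP library, the control library and the rhino knockdown. At the 4 neighbouring bins near 139 kb the Piwi-IP signal was 55.1 to 119 and the control signal 0.457 to 2.12, and 46 of the other 50 bins lay within 2-fold of the control in the Piwi-IP library.

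The 5-bin run on X had no exon bin and a higher mean signal than flamenco, 2895 in the Piwi-IP library and 2483 in the control. Its bins had Piwi-IP signals of 1440, 2211, 2973, 3396 and 4457 and control signals of 949, 1466, 2732, 3391 and 3879. At the deposited scaling every bin was therefore at or above the control, by 1.19 times over the run (1.18 to 1.20). The interval does not cover the choice of scaling. Scaling to equal flamenco signal multiplies the Piwi-IP signal by 0.857, which would place some of these bins below the control. Small RNA remained there in the rhino and cutoff knockdowns, at mean signals of 2715 and 2569, and was 1954 in the deadlock knockdown. H3K9me3 ChIP signal was 21.6 to 42.01 against an input of 4.05 to 12.4, and none of its bins overlapped a Rhino peak. Such peaks lay in 7.63% of all bins of the set, so their absence from so few bins says little. RNA-seq signal was at most 1.09 and 1.58 in the 2 control libraries.

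The run on scaffold U was mixed. The scaffold joins sequence of unknown place, so its order of bins need not be that of a chromosome. In the 12 bins from 932001 to 964000 the Piwi-IP signal was 0.1 to 0.853 and the control signal 12.3 to 105. From 987001 to 1022000, 15 bins were at least 2-fold higher in the Piwi-IP library, which were 15 of the 43 such bins in the whole set (0.278% of all bins). Their signal was 72.6 to 1293 in the Piwi-IP library and 20.3 to 577 in the control. In the rhino knockdown it was 23.9 to 687, close to the control, and in the deadlock knockdown 3.73 to 214. The mappability index of these 15 bins was 0.255 to 0.950. The other 9 bins of the run had ratios of 0.179 to 1.60. Among them was its highest bin, 984001 to 985000, with a signal of 2601 in the Piwi-IP library and 5761 in the control, where the averaged Rhino ChIP signal was 720.6 over an input of 89.8.

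Such sources were rare among listed clusters. Flagged bins joined over gaps of up to 3 kb gave 134 runs, of which 119 held bins of the set. The ratio of scaled reads was at least 0.5 in 4 of them: flamenco, the 5-bin run on X, the run on U and a run with 2 bins on U (3928001 to 3943000). It was between 0.25 and 0.5 in 1, at 2RHet 2803001 to 2899000. There 8 of 38 bins were at 0.5 times the control or more, against 19.3% of all bins, and 28 at 0.25 times or less. Those 8 were the only exon bins of the run and lay side by side, at 2814001 to 2822000. Their Piwi-IP signal was 62.1 to 204, and in the other bins of the run it was at most 4.69. The ratio of the run thus came mainly from its exon bins. The remaining 114 runs were at 0.25 or less and 80 of them under 0.01, with a median over all runs of 0.00493. Among these was 20A (X 21391001 to 21428000), a cluster transcribed from a single strand like flamenco. Its 13 bins had Piwi-IP signals of 0.668 to 674 and control signals of 21.7 to 17528, and the Piwi-IP density was 28.1-fold lower (27.8 to 28.4). 20A lies on the same chromosome arm as flamenco, and its small RNA remained in the rhino, deadlock and cutoff knockdowns, at mean signals of 8306, 8426 and 9723 against 7593 in the control. Of the other clusters with at least 1% of the flagged reads, the run at X 2001 to 28000, at the telomere end of the arm, was 927-fold lower and a run at the distal end of chromosome 4 (1258001 to 1349000) was 564-fold lower. Those at 3LHet 238001 to 333000 and 2011001 to 2231000 were 287-fold and 155-fold lower, and another 3LHet run (1402001 to 1558000) 16.3-fold lower. A run on U (3113001 to 3138000) was 27.5-fold lower, and a run on X that lies beyond flamenco (21759001 to 21845000) was 75.3-fold lower.

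**Figure D3:**
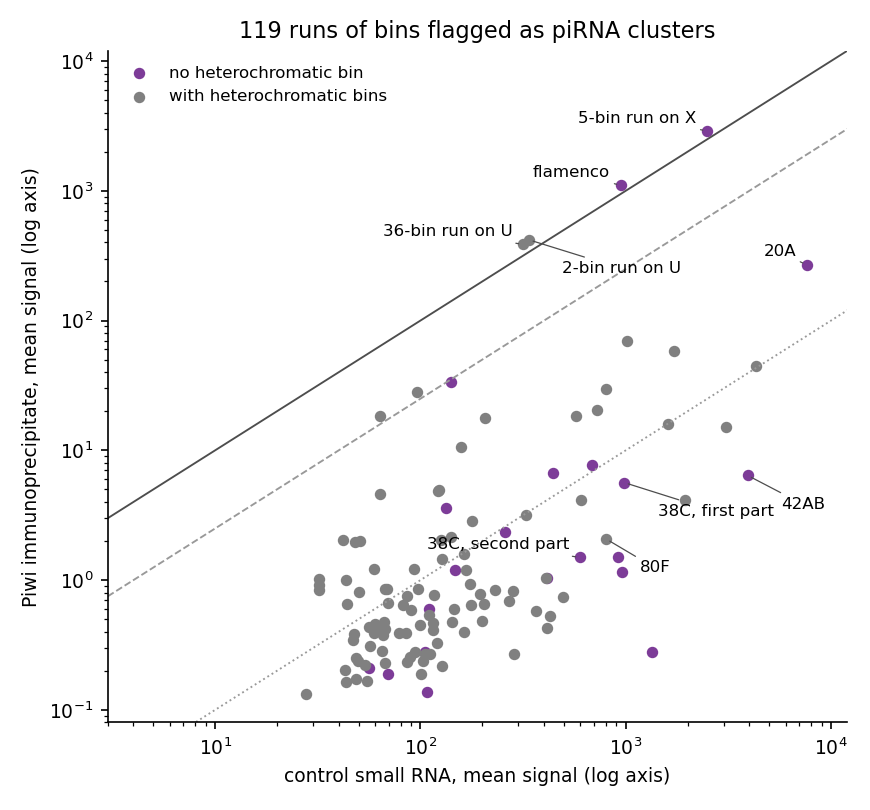
Mean signal of the Piwi-IP library (y axis, log scale) against that of the control library (x axis, log scale) for 119 runs of bins flagged as piRNA clusters. The solid line marks equal signal, the dashed line 0.25 times and the dotted line 0.01 times the control. Flamenco, the 5-bin run on X and 2 runs on U lie at or above the solid line, and 20A and the dual-strand clusters far below it.

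Over all 15466 bins, clusters included, the 2 libraries were compared bin by bin. The log2 ratio of (Piwi-IP + 1) to (control + 1) had a median of -2.94 over the 15466 bins. With the deposited scaling, 6 bins (0.0388% of all) were at least 4-fold higher in the Piwi-IP library and 10488 (67.8%) at least 4-fold lower. Of the 15466 bins, 12601 had entered through the control library alone and 123 through the Piwi-IP library alone. The median and the balance of lower and higher bins therefore follow in part from how bins were chosen. A further class, chosen after the values were seen, comprised the 2981 bins (19.3%) at 0.5 times the control or more. Those bins held 87.0% of the Piwi-IP reads and 13.3% of the control reads. The 2863 of them outside clusters held 38.9% and 7.18%. When the libraries were instead scaled to the same summed signal over the set, which raises the Piwi-IP signal 8.01-fold and shifts the log2 ratio by 3.001 before the pseudocount, 2470 bins were at least 4-fold higher and 7044 at least 4-fold lower. Directions between the libraries are therefore given relative to the deposited scaling, under which flamenco is close to equal.

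Heterochromatic bins had the lowest ratios to the control. Of the 7192 bins with that flag, 6593 (91.7%) were at 0.25 times the control or less and 323 (4.49%) at 0.5 times or more, with a median log2 ratio of -4.24. Of the 8274 euchromatic bins, 3895 (47.1%) and 2658 (32.1%) were. Among the 6642 heterochromatic bins with no exon, 208 (3.13%) were at 0.5 times or more. Among the 550 heterochromatic bins with an exon, 115 (20.9%) were. These are ratios, and the control was high there. Outside clusters, a control signal of 5 was reached by 51.3% of mappable heterochromatic exon bins and 63.7% of those without an exon. A Piwi-IP signal of 5 was reached by 13.2% and 3.13% of them, against 3.41% and 0.863% in euchromatin. By that measure heterochromatin stood above euchromatin. The heterochromatic bins at 0.5 times or more were spread over 10 chromosomes and scaffolds, with 73 on 2RHet, 65 on 2R, 49 on 3LHet and 48 on U. The 48 bins on U held 6.68% of the Piwi-IP reads, and 22 of them lay in the run described above.

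Euchromatic bins with and without an exon differed in the shape of the distribution. The 2309 bins without an exon fell into 2 groups, with 418 bins at log2 ratios of -3 to -2, 105 at -2 to -1 and 510 at -1 to 0. The 5965 exon bins showed no such gap, with 1508, 1616 and 1593 bins in the same intervals. The share at 0.5 times the control or more was nevertheless nearly the same in both, at 1912 of 5965 exon bins (32.1%) and 746 of 2309 others (32.3%). A bin with no Piwi-IP reads entered only through its control signal, and the pseudocount then places it below -2. The lower group and the dip of the bins without an exon therefore follow in part from the inclusion rule and the pseudocount. At the deposited scaling 4.11% of all 15466 bins exceeded the control, among them 319 of the euchromatic exon bins and 236 of the others.

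**Figure D4:**
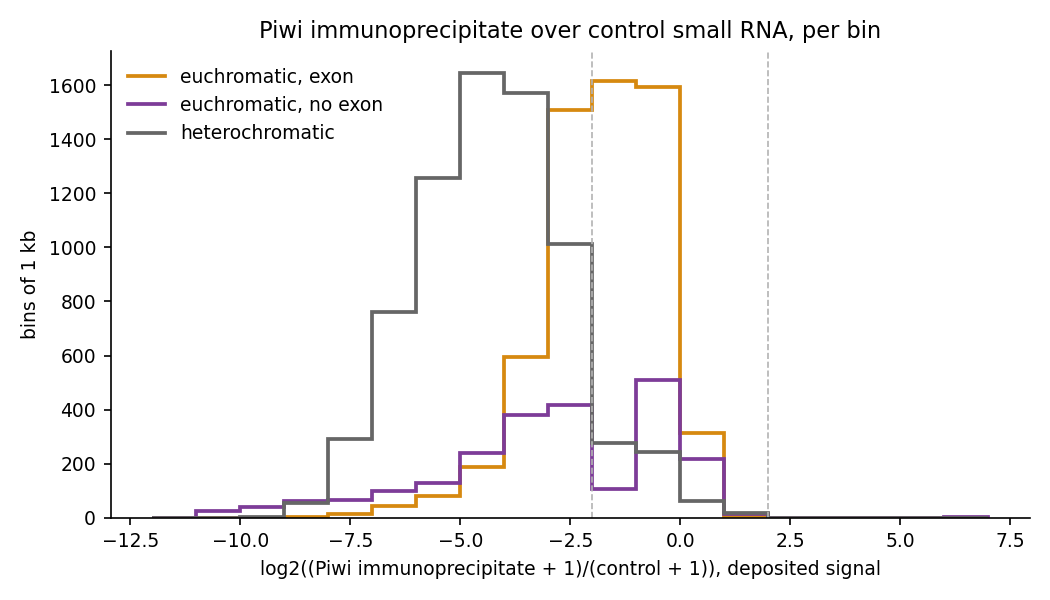
Number of bins (y axis) by log2 ratio of (Piwi-IP + 1) to (control + 1) in steps of 1 (x axis), for euchromatic bins with an exon, euchromatic bins without one and heterochromatic bins, with dashed lines at 4-fold lower and higher. Heterochromatic bins peak between -5 and -4, euchromatic bins without an exon have a dip of 105 bins between -2 and -1, and exon bins have none. By the inclusion rule and the pseudocount, a bin with no Piwi-IP reads always lies below -2.

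Exon bins carried small RNA more often than other euchromatic bins in both libraries. Outside clusters, 1911 of the 51408 mappable euchromatic exon bins (3.72%) were in the set and at 0.5 times the control or more, against 688 of 59214 bins without an exon (1.16%). A Piwi-IP signal of 5 was reached by 3.41% and 0.863%. In the control library the same minimum was reached by 11.4% and 3.16%, so the control was richer in exon bins as well. On the arms, the share of euchromatic bins at 0.5 times or more was 1.99% on 2L, 2.19% on 2R, 2.35% on 3L, 2.30% on 3R and 2.44% on X. Chromosome 4 stood above them with 124 of 1093 bins (11.3%), 15.7% of its exon bins and 3.17% of its other bins. It was also richest in the control, where 44.3% of its bins reached a signal of 5 against 5.71% to 8.11% on the arms.

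Exon bins that gave Piwi-IP small RNA were few where the RNA-seq signal was low. The euchromatic exon bins outside clusters were ordered by the mean of the 2 control RNA-seq libraries and cut into 10 groups of 5140 or 5141 bins. The lowest 3 groups held 2, 2 and 7 bins at 0.5 times the control or more. The count was 56 in the fourth group, 285 in the sixth and 382 (7.43%) in the eighth, and the tenth had 382 as well. The median RNA-seq signal was 3.48 in the sixth group, 18.4 in the eighth and 68.0 in the tenth. A Piwi-IP signal of at least 5 was found in 226, 295 and 528 bins of these groups, so by that measure the tenth group stood highest, with 10.3% of its bins against 5.74% in the eighth. Bins with control small RNA were not counted by group. Whether the pattern is particular to the Piwi-IP library was therefore not tested.

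Outside clusters, bins at 0.5 times the control or more with a Piwi-IP signal of at least 5 were joined over gaps of up to 3 kb into 1115 loci with 2049 bins. They held 36.4% of the Piwi-IP reads in the set. Most were small: 710 were single bins, 66 had at least 5 bins and the longest spanned 23 kb. In 856 loci every bin overlapped an exon and in 179 none did. No gene names are given for them, because the table does not name genes and an annotation of dm3 was not used here. The 10 loci with the largest summed Piwi-IP signal held 7.49% of the Piwi-IP reads, and their ratio of scaled reads was 0.860 to 1.74. Of these, 3 lay on chromosome 4 and 6 consisted of exon bins only.

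The highest locus was at 4 154001 to 164000. The Piwi-IP signal of its 9 bins was 20.8 to 641 and the control signal 28.7 to 557, with a ratio of 1.16 (1.14 to 1.19). The mean signal was 288 in the Piwi-IP library, 249 in the control, 265 in the rhino knockdown, 246 in the deadlock knockdown and 270 in the cutoff knockdown. All of these bins overlapped an exon and an H3K9me3 peak and none a Rhino peak. Over all bins of the set, H3K9me3 peaks lay in 34.4% and Rhino peaks in 7.63%. H3K9me3 ChIP signal over them averaged 98.4 in the control and 42.1 in the piwi knockdown. Its right edge was sharp. The last bin of the locus (163001 to 164000) had a Piwi-IP signal of 587 and a control signal of 441. The next bin, which has no exon, had 0.159 and 43.0, and its small RNA in the rhino knockdown was 0.891. So a bin of small RNA shared by all 5 libraries lay directly beside bins with 2 or 3 Piwi-IP reads each and 87 to 152 control reads.

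The other leading loci differed in their chromatin and RNA. The locus at 4 1030001 to 1045000 had a mean Piwi-IP signal of 65.3 against 65.1 in the control, and all its 11 bins overlapped an exon and an H3K9me3 peak. At 4 559001 to 566000 the means were 100.1 and 57.8, a ratio of 1.74 (1.66 to 1.83), with mean RNA-seq signals of 0.452 and 0.451 in the 2 control libraries although all 7 bins overlapped an exon. The 2-bin exon locus at X 10642001 to 10644000 had mean signals of 514 in the Piwi-IP library and 518 in the control, and 1 of its bins had 1012 and 1018. It had no H3K9me3 peak, its mean H3K9me3 signal was 7.01 and the input 7.40, and RNA-seq signal was 52.3 and 35.5. At 3L 9486001 to 9501000, 10 bins had Piwi-IP signals of 5.12 to 860 against 2.49 to 732, also without an H3K9me3 peak. The 5 heterochromatic exon bins at 2L 22742001 to 22747000 and the 9 at 2R 1065001 to 1076000 had ratios of 1.17 (1.13 to 1.21) and 1.05 (1.02 to 1.09). At 3L 20329001 to 20337000, 2 of 7 bins overlapped an exon, and the mean signals were 104.6 in the Piwi-IP library and 108.0 in the control. The loci on U had no exon bin. The single bin at 3713001 to 3714000 had 651 and 412, and the 2 bins at 4319001 to 4321000 had means of 298 and 317. None of the 10 loci overlapped a Rhino peak. Such peaks were rare in any case, in 7.63% of all bins of the set. They lay in 0.105% of the euchromatic exon bins at 0.5 times the control or more. Their absence therefore does not set these loci apart.

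Runs of bins without an exon were ranked by their number of bins and not by signal. Their lower signals than those of the 10 loci follow in part from that choice. The run with the most such bins, at 3R 19906001 to 19929000, had 18 bins with Piwi-IP signals of 5.19 to 17.3 and control signals of 2.01 to 15.9. In 17 of the 18 the Piwi-IP library was the higher, and the ratio over the run was 1.92 (1.73 to 2.13). GRO-seq, which measures nascent RNA, averaged 10.1 over it, and RNA-seq 0.473 and 1.49 in the 2 control libraries. The next, at 2R 19454001 to 19475000 and 3R 15396001 to 15410000, had 15 and 13 bins and ratios of 1.15 (1.05 to 1.26) and 0.990 (0.931 to 1.05).

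Among the 6 bins at least 4-fold higher in the Piwi-IP library, 4 were the neighbouring flamenco bins and 1 lay in the run on U (988001 to 989000), at 682 against 169. The last was the only one outside clusters. It overlaps an exon at 2L 10985001 to 10986000 and had a Piwi-IP signal of 176 from 7720 reads and a control signal of 19.0 from 79 reads, a ratio of 9.31 (7.46 to 11.8). The rhino, deadlock and cutoff knockdowns had 12.7, 13.6 and 22.5. The bins on either side, at 2.88 and 5.05 in the Piwi-IP library, were below the control at 12.4 and 6.56. At the other end, the 5 bins with the lowest ratio lay in 42AB, at log2 ratios of -11.1 to -10.7. The lowest (2R 2307001 to 2308000) had 6 Piwi-IP reads and 4437 control reads.

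The small RNA of the 3 germline knockdowns was not used in choosing the bins. Its level followed the Piwi-IP class in bins without an exon. In euchromatic bins without an exon at 0.5 times the control or more, the median signal was 7.499 in the control and 8.05, 7.42 and 8.30 in the rhino, deadlock and cutoff knockdowns. In those at 0.25 times or less it was 15.9 in the control and 0.702, 0.543 and 0.578 in the knockdowns. Heterochromatic bins were alike, with 13.8 in the control and 15.0, 13.4 and 14.3 in the knockdowns for the first class, and 27.6 and 0.873, 0.639 and 0.761 for the second. Euchromatic exon bins were not. Those at 0.25 times the control or less had a median of 10.6 in the control and kept 10.4, 11.9 and 11.6 in the knockdowns, while their median Piwi-IP signal was 0.441. They were 2437 of the 5965 euchromatic exon bins. The classes were cut on the control library, so only the levels are given and not the ratios to it.

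**Figure D5:**
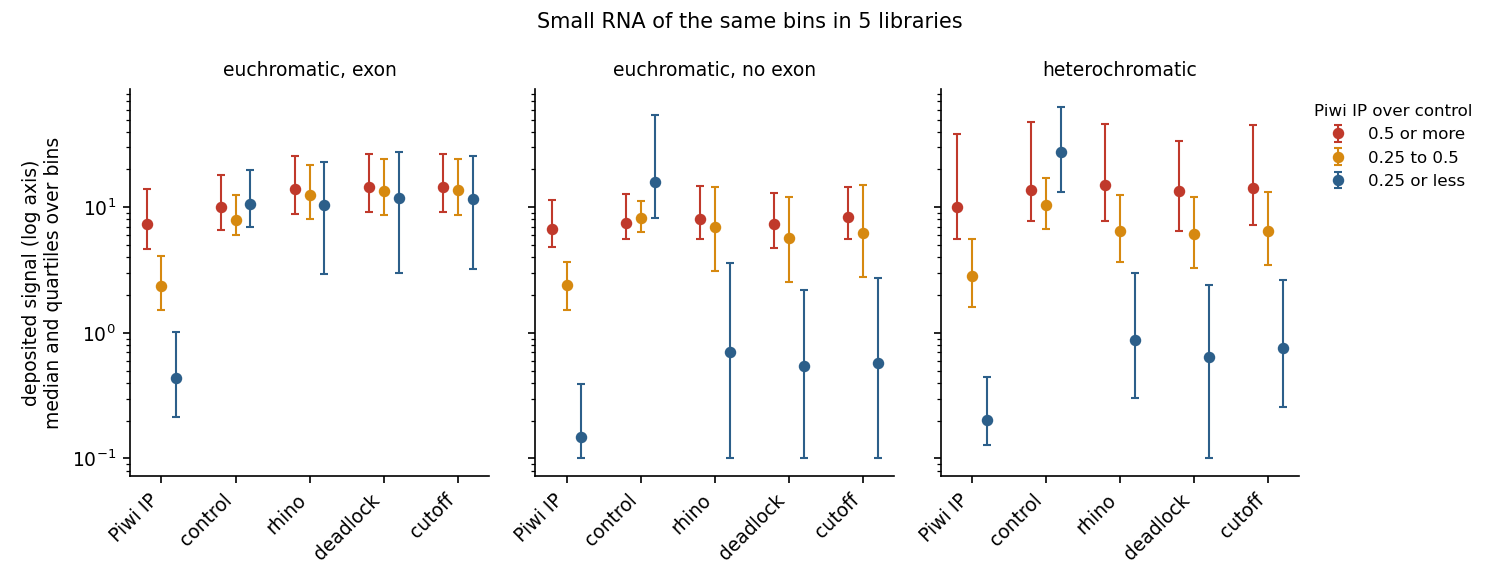
Median signal (y axis, log scale) with quartiles over bins in 5 small RNA libraries (x axis), for bins at 0.5 times the control or more (red), 0.25 to 0.5 times (orange) and 0.25 times or less (blue), in 3 kinds of bin. In the lowest class the knockdown medians are below 1 for bins without an exon and for heterochromatin, and 10.4 to 11.9 for euchromatic exon bins. The quartiles show the spread over bins and not between ovaries.

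The authors' own classes showed the same separation and partly rest on the same columns, so they are no independent evidence. Bins with their somatic flag numbered 2453 in the set and held 74.4% of the Piwi-IP reads and 13.6% of the control reads. Bins with their Rhino-dependent flag numbered 5528 and held 1.18% and 57.8%, and those with their Rhino-independent flag numbered 1361 and held 2.45% and 12.1%. The somatic flag and the class at 0.5 times the control or more shared 1413 bins, which were 57.6% of the first and 47.4% of the second. Of the 1568 bins of the class without the flag, 1540 had a control signal under 10, and no flagged bin did.

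Chromatin of the same bins was compared by class. Only 1 of the 746 euchromatic bins without an exon at 0.5 times the control or more (0.134%) overlapped a Rhino peak, against 28.4% of the 1458 at 0.25 times or less. Their median Rhino ChIP signal was 8.66 against 15.3, with inputs of 8.73 and 8.56. Their median H3K9me3 signal was 7.28 against 17.4. Nascent RNA went the other way, at a median GRO-seq signal of 7.32 against 1.37. In heterochromatin the median H3K9me3 signal of the same classes was 34.5 and 27.7 over inputs of 5.66 and 4.17. Relative to input they were close, with a median log2 ratio of H3K9me3 signal to input of 2.43 and 2.48. H3K9me3 peaks lay in 66.9% and 49.5% of those bins and Rhino peaks in 0.929% and 8.18%. In euchromatic exon bins the median RNA-seq signal of the 2 control libraries was 16.3 and 17.6 at 0.5 times the control or more and 21.99 and 30.4 at 0.25 times or less. At 0.5 times the control or more, the median H3K9me3 signal in control and piwi knockdown ovaries was 5.98 and 5.97 in euchromatic exon bins, 7.28 and 7.05 in the other euchromatic bins and 34.5 and 38.6 in heterochromatin. At 0.25 times or less it was 8.53 and 7.48, 17.4 and 14.0, and 27.7 and 38.5 in the same order. Single sources differed more than the class at 0.5 times or more. The locus at 154001 on chromosome 4 had means of 98.4 and 42.1, and the locus at 1030001 on the same chromosome 73.5 and 36.8. The run on scaffold U, with 13 of its 36 bins at 0.25 times or less, had medians of 11.2 and 20.3. These ChIP values were averaged over 2 libraries before deposit, so no spread can be given for them.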

How the data were processed

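The members and lists were chosen with earlier results of these data known. The authors deposited 1 table of 1 kb bins on dm3 with decimal commas, whose values are a normalised score: a signal for each bin with no definition in the labels. Per the submitters' processing notes, the tools were bedtools 2.16.1, SAMtools 0.1.16, Bowtie 0.12.7, cutadapt 1.0 and GSNAP, with no roles given. The table does not separate strands or read lengths, and how reads with several genomic positions were placed is not given in the sources used here.

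Removing an offset of 0.1, multiplying by the mappability index and by the library total returned whole numbers, to within 0.1 read, for 100% of the bins below 500 reads. The library totals were inferred from the values as those that make the numbers whole. The Piwi-IP reads in bins were 14.6% of the total used for scaling and the control reads 89.7%. In the rhino, deadlock and cutoff knockdown libraries they were 41.3%, 44.4% and 45.2%. Bins with a mappability index under 0.25 held 7.34% and 13.5% of the bin reads and were left out. Shares used reads, and ratios summed reads divided by the library totals. Fold classes used log2(value + 1), which understates the change of low bins. Clusters were taken from the authors' flags, and the names of the 6 major ones come from the literature by chromosome and order. Named were cluster runs with at least 1% of the flagged reads of either library, the 10 highest loci at least 4-fold over the control (1 locus resulted, so 10 loci at 0.5 times or more were added after seeing the data), and the 5 highest and 5 lowest bins among those at 50 or more in the higher library. Other items were picked after their values were seen. Replicates could not be compared, as each small RNA group has 1 library.

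The procedure was tested on simulated data for this comparison. With 200 changed bins among 139714, 100% of the read numbers were returned and 94.5% of the intervals held the true ratio. The changed bins had a control signal above the minimum of the set, and all others were made equal in both libraries. The simulated reads carried only the counting error that the intervals assume. The test therefore cannot show how the intervals fare with PCR copies or spread between ovaries. Python 3.11.15, pandas 2.3.3, numpy 2.4.6, scipy 1.17.1 and matplotlib 3.10.9 were used.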

Additional observations from a re-analysis of the deposited data

How the results depend on the processing

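No paired analysis was possible because the comparison has 1 library on each side and no spread. Scaling to the same summed signal gave 2470 bins at least 4-fold higher, 6635 at 0.5 times or more and a median log2 ratio of -1.75, and equal flamenco signal a median of -3.00. A pseudocount of 0.1 gave a median of -4.70, and a pseudocount of 5 gave -1.48, 5790 bins lower and 4830 at 0.5 times or more. A mappability index of at least 0.5 gave a median of -2.64. A minimum of 20 gave -4.90 and 5246 bins lower, and a minimum of 1 gave -1.19. With 2-fold as the limit 43 bins were higher. The shares of flamenco, heterochromatin and exon bins in the Piwi-IP library were 37.0%, 20.4% and 30.0% by deposited signal. They were 26.8%, 13.6% and 47.3% at a mappability index of at least 0.5, 27.7%, 17.4% and 42.4% without the highest bin of each library, and 35.2%, 4.997% and 44.1% without unplaced and heterochromatic scaffolds. In the control they were 3.96%, 37.4% and 11.6%, then 4.25%, 37.9% and 25.8%, then 4.12%, 37.4% and 17.6%, and last 5.44%, 15.8% and 23.6%. Without the 4 neighbouring bins flamenco held 30.8% of the Piwi-IP reads. In each of these the Piwi-IP library had the larger share at flamenco and exons and the smaller in heterochromatin. The other 18 values were within 1.5 times the main count. Leaving out either RNA-seq control library gave median signals of 16.3 to 17.6 and 21.99 to 30.4 in exon bins of the highest and lowest class. The class at 0.5 times or more, its alternatives and the removal of the 4 bins were chosen after seeing the data. The cause of these shifts was not tested. With 1 library a side, depth limits only low bins: 3 reads are a signal of 0.716 in the control and 0.0682 in the Piwi-IP library.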
